A study of Mus musculus with 6 samples.

Results

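The proteasome subunit genes were examined in sorted acute myeloid leukemia cells, as the rows of the deposited RNA-seq table whose symbol is Psma, Psmb, Psmc or Psmd followed by a number, leaving out the interferon-inducible immunosubunits Psmb8, Psmb9 and Psmb10. This choice used names only, and it took 36 of 53618 named rows. The cells came from Usp18+/f mice carrying UBCER-Cre, a tamoxifen-activated Cre recombinase driven by the ubiquitin C promoter, and had been transduced with AE9a, a truncated AML1-ETO fusion protein, on a retrovirus that also encodes GFP. They were transplanted into irradiated wild-type C57BL/6 recipients, and once these were sick they received either corn oil alone (labelled Usp18+/f, 3 libraries) or tamoxifen in corn oil, intended to delete 1 of the 2 Usp18 alleles (labelled Usp18+/Δ, 3 libraries). GFP+Lin-c-Kit+ splenocytes were sorted 3 days after the first injection. All 6 libraries therefore share the floxed allele, the Cre transgene, the oncogene and the host strain. USP18 removes the ubiquitin-like modifier ISG15 from proteins and dampens the type I interferon response.

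The host cells of the spleen do not carry the Cre transgene, so that deletion was possible only in the graft. No group of these libraries received tamoxifen without the floxed allele, and an effect of the drug and an effect of the deletion cannot be told apart. Whether the recipients of both groups received cells of the same primary leukemia is not given in the sources used here. The methods give for all animals a range of young adult ages and both sexes, and no age for each library.

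The 26S proteasome degrades proteins marked with ubiquitin. Its barrel, the 20S core particle, stacks outer rings of alpha subunits, encoded by Psma genes, around inner rings of beta subunits, encoded by Psmb genes, and 3 beta subunits hold the active sites. The 19S regulatory particle caps the barrel: its ring of ATPases, encoded by Psmc genes, unfolds the substrate and threads it into the core, while the non-ATPase subunits, encoded by Psmd genes, bind and remove ubiquitin. Cells keep the subunits in balance, and when proteasome activity falls the transcription factor NRF1, encoded by Nfe2l1, raises the subunit genes together through antioxidant response elements in their promoters. Inhibitors of this enzyme are used against multiple myeloma. Interferon replaces the 3 active subunits by the immunosubunits, which alter the peptides cut for antigen presentation.

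Because such common control acts on promoters, the windows from 250 bases before to 50 bases after the RefSeq transcription start (GRCm38.p6) were searched on both strands, and 29 of the 36 genes had at least 1 window. The antioxidant response element core, TGACNNNGC, was found in 5 of these 29 genes, namely Psmb5, Psmb6, Psmc6, Psmd9 and Psmd12, or 17.2%, against 17.2% of the tested genes with a window and 12.4% of all windows. The NF-Y box CCAAT was found in 12 genes, or 41.4%, against 43.3% of tested genes and 37.4% of all windows. A core of the interferon-stimulated response element, GAAANNGAA, was present in Psmb3, Psmb4, Psmc2, Psmd4 and Psmd9, or 17.2%, against 8.54% of tested genes and 8.56% of all windows, and a gamma-activated site core, TTCNNNGAA, was present only in Psmd2, or 3.45%, against 8.19% and 8.30%. The last 2 motifs share the letters GAA and may overlap each other, and a match describes the letters alone. The 100 bases before the start are shown for 3 of the genes, the active subunit genes Psmb5 and Psmb6 and the chaperone gene Psmd9, with the antioxidant response element core in capitals. Psmb5 lies on the minus strand at chr14:54617996-54618095, Psmb6 on the plus strand at chr11:70525257-70525356 and Psmd9 on the plus strand at chr5:123228090-123228189.
Psmb5: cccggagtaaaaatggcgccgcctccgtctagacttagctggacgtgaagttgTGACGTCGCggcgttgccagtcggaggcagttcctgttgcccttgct
Psmb6: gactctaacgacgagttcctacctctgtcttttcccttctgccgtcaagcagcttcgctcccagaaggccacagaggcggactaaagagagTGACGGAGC
Psmd9: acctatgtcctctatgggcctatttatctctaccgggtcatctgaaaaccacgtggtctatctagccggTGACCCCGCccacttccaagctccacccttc

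The values are normalised counts, that is, read counts divided by 1 size factor per library, and between 19164795 and 23770537 reads fell on named genes in each library. Usp18 itself was not lower in the libraries labelled tamoxifen. It was higher in each of them, as were 7.86% of all tested genes, and did not pass the main test. Its normalised count was 217, 214 and 176 in the oil libraries and 477, 329 and 284 in those labelled tamoxifen 1, 2 and 3, a log2 fold change of 0.81 ± 0.25 (SE) over 6 libraries with an adjusted p of 0.666 in limma, and of 0.60 ± 0.15 (SE) without tamoxifen 1 with an adjusted p of 0.181. Below, oil and tamoxifen libraries are those labelled so. The library labelled tamoxifen 1 stood apart from the other 5, as shown for the subunit genes below, and the groups were compared with and without it. Markers of the labelled cells, such as Kit, summed to between 34730 and 41484 normalised counts per library in overlapping ranges. Of the other lists, macrophage markers summed to 61.7 to 162 in oil and 197 to 289 in tamoxifen libraries, with 4 of 7 genes higher in every tamoxifen library, and neutrophil markers to 5.39 to 7.72 and 26.4 to 62.6, with 5 of 6 higher. Of all tested genes, 7.86% were higher in every tamoxifen library. The number that reached 10 normalised counts in at least 3 libraries was 5 of the 7 macrophage genes and 0 of the 6 neutrophil genes. Erythroid markers summed to 43830 to 64067 and 49616 to 74305, T, NK and dendritic cell markers to at most 2.79, and B cell markers to at most 24.3, with Ly6g, Cd3e, Cd5, Ms4a1, Ncr1, Klrb1c and Clec9a at 0 throughout. The sort for GFP+Lin-c-Kit+ cells used a lineage antibody cocktail, which is meant to leave out mature blood cells. The part of cells of these other types in the results below was not tested.

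Of the 36 genes, 34 were expressed above the filter of 10 normalised counts in at least 3 libraries, and each of these reached a mean of at least 839 in the oil libraries. The other two were Psma8, an alpha subunit of the testis, and Psmb11, the beta subunit of thymic cortical epithelium. Both had 0 reads in all 6 libraries, which allows at most 3 reads, or 2.69 to 3.83 normalised counts, per library from counting error alone. The 34 expressed genes lie on 15 chromosomes. Together the 36 genes took 0.544%, 0.533% and 0.579% of the summed normalised counts in the oil libraries.

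Within the oil libraries the subunits of 1 particle were not at equal transcript levels. Per kilobase of transcript, the 7 alpha genes had a median of 2949 normalised counts. They ranged from 1352 ± 79.8 (SD, n = 3) for Psma2 to 4759 ± 260 for Psma6, although the alpha ring holds each subunit once. The place of Psma2 rests on the lengths used, 2911 bases for it and 1239 for Psma5. By normalised count alone Psma2 lay above Psma5, at oil means of 3937 and 2640. The 7 beta genes had a median of 3407 and a wider range, from 1061 ± 93.6 for Psmb5 to 5174 ± 352 for Psmb3, the highest level of any subunit. The 3 catalytic members differed among themselves, since Psmb6, with caspase-like activity, stood at 3407 ± 175, Psmb7, with trypsin-like activity, at 1500.0 ± 159 and Psmb5, with chymotrypsin-like activity and the main target of proteasome inhibitors, at 1061 ± 93.6. The spread of the last 2 was well below their distance to Psmb6.

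The 19S genes lay lower. The 6 ATPase genes had a median of 1923 per kilobase, between Psmc6 at 1079.8 ± 78.9 and Psmc1 at 3550.5 ± 188, and the 11 non-ATPase genes a median of 1740.4, between Psmd11 at 992 ± 96.8 and Psmd2 at 3627 ± 292. PSMD2 is a scaffold and ubiquitin-binding subunit of the base. The ubiquitin receptor gene Psmd4 stood at 1957 ± 78.3 and Psmd14, which encodes the deubiquitinase of the lid, at 1740.4 ± 133. The chaperones of the ATPase ring, which leave the finished particle, were the least abundant, with Psmd9 at 354 ± 24.0, Psmd5 at 387 ± 32.3 and Psmd10 at 587 ± 6.36 per kilobase. Psmd5 and Psmd9 did not differ beyond their spread. Lengths are those of 1 coding transcript per gene, the longest in the basic GENCODE annotation, and set these levels directly. The order of the genes can therefore change with the transcript chosen.

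**Figure D1:**
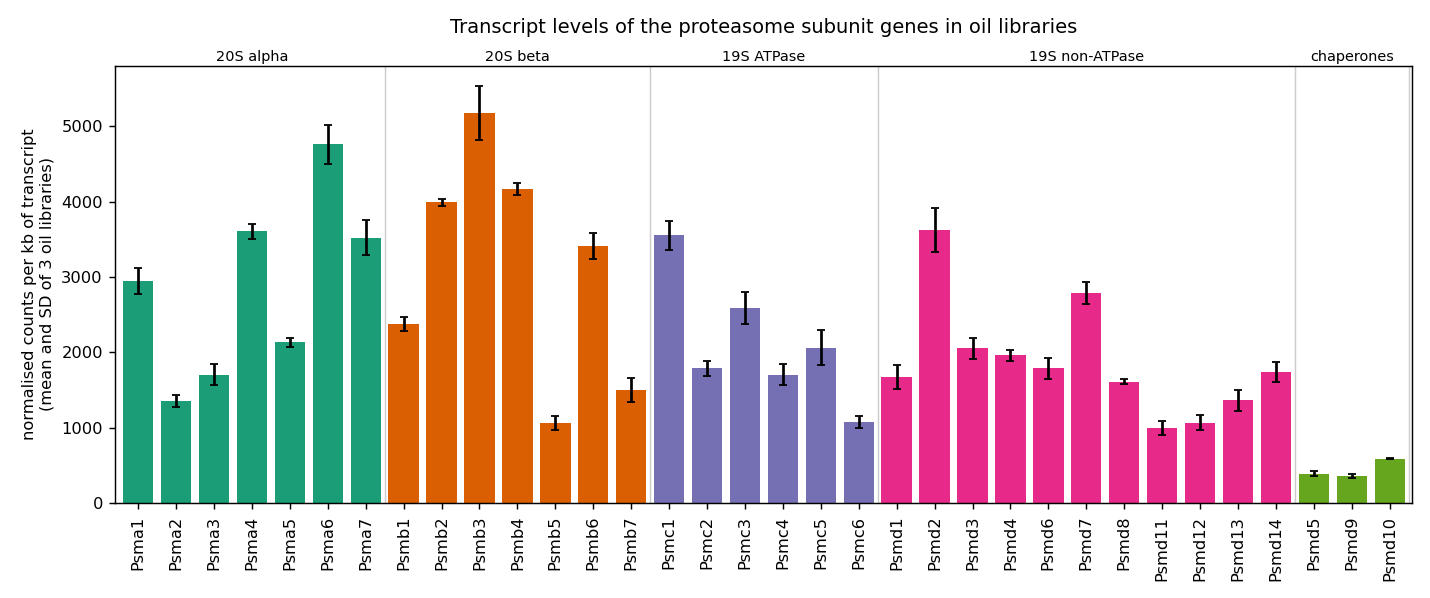
Level of each of the 34 expressed genes as normalised counts per kilobase of transcript, bars showing the mean and lines the SD of the 3 oil libraries, coloured by class. The chaperone genes lie lowest, at 354 to 587, and Psmb3 and Psma6 highest, at 5174 and 4759.

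The oil libraries set the scale for any change. The coefficient of variation of the 34 genes over the 3 oil libraries had a median of 6.80%, from 1.08% for Psmd10 to 11.3% for Psmc5, where counting error alone would give a median of 1.68%. The 5187 tested genes with oil means in the same range had a median of 5.68%.

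With all 6 libraries, 10 subunit genes were higher and 24 lower in the tamoxifen libraries, beside 51.6% lower among all tested genes. None of the subunit genes passed the test. The log2 fold changes ran from -0.92 for Psma2 to 0.54 for Psmd3 with a median of -0.13, beside -0.02 over the 12298 genes tested, and limma's adjusted p ranged from 0.666 to 0.964. The number past an adjusted p of 0.05 was 0 of 34 among the subunit genes and 0% of all genes, and the number past an unadjusted p of 0.05 was 0 of 34 against 4.47%. edgeR and DESeq2 on the recovered reads also called 0 of 34, adjusted or not. In 3 genes, Psma5, Psmd8 and Psmd10, every tamoxifen library lay below every oil library, where 9.69% of all genes did so, and in 0 genes above, where 7.86% did. The split of directions moved with the processing, to 15 higher and 19 lower under upper-quartile factors and to 9 and 25 under TMM factors. With library weights in limma it was 1 higher and 33 lower, with 3 genes at an unadjusted p under 0.05. SEs ran from 0.12 to 0.70.

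The wide errors came with 1 library. Tamoxifen 1 lay above all other 5 libraries for 11 of the 34 genes, below all of them for 18 and inside their range for 5. Its log2 deviation from the mean of the other 5 ran from -2.67 for Psma2 to 1.55 for Psmd3, with an SD over the genes of 0.92, against 0.056 to 0.091 for any other library set against the remaining 4. Of the 7 beta genes 3 lay above all other libraries in it and 3 below, and of the 6 ATPase genes 3 and 3, while of the 7 alpha genes 0 lay above and 5 below. Psma2, an alpha subunit, measured 4121, 3676 and 4013 in oil, 610 in tamoxifen 1, and 4058 and 3613 in tamoxifen 2 and 3. Psmb7, whose product cuts after basic residues, measured 1663, 1606 and 1951 in oil, 357 in tamoxifen 1, and 1770.0 and 1541 in the other two. Psmd3, a subunit of the lid, measured 4079, 4469 and 4675 in oil and 13032, 4692 and 4299 in tamoxifen 1, 2 and 3. In each of these 3 genes the other 5 libraries overlapped and tamoxifen 1 alone was far off, while Psma5, Psma7, Psmb4, Psmd7 and Psmd11, the 5 genes inside the range of the others, deviated in it by -0.07 to 0.05.

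The deviations in tamoxifen 1 followed the GC content of the transcripts. Across the 34 genes, which share that library and are not independent, Spearman's rho of the deviation with GC content was 0.83 and Pearson's r 0.79, and rho was 0.72 over 10807 tested protein-coding genes. With transcript length rho was -0.01, and for the other 5 libraries rho with GC content ran from -0.11 to 0.17. All 7 genes under 45% GC and all 12 from 45% to 50% were lower in tamoxifen 1, with median deviations of -1.16 and -0.49, and 13 of 15 at 50% or more were higher, with a median of 0.33. The exceptions at the high end were Psmb2, at 51.0% GC and -1.17, and Psmd8, at 52.6% and -0.69. Removing a smooth trend on GC content per library lowered the SD of the deviations from 0.92 to 0.59, and the lowest value left was -2.03, for Psmb7. What set this library apart was not tested.

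**Figure D2:**
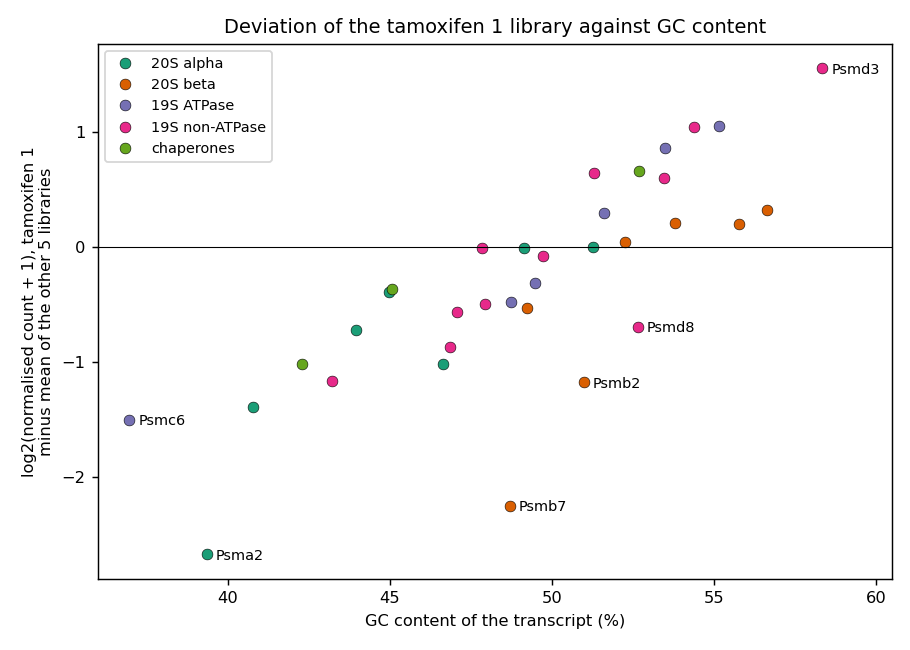
Deviation of tamoxifen 1 from the mean of the other 5 libraries, on the log2(normalised count + 1) scale, against the GC content of the transcript in percent. Each point is 1 of the 34 genes, coloured by class. Points rise from lower left to upper right (rho 0.83), with Psma2 and Psmb7 lowest and Psmd3 highest.

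Without tamoxifen 1, that is with 3 oil and 2 tamoxifen libraries, the subunit genes varied little between the groups. The fitted log2 fold changes lay between -0.27 for Psmd10 and 0.03 for Psmd3, with SEs of 0.07 to 0.12. Of the 34 genes 29 were lower, beside 55.2% of all tested genes. The 5 higher were Psmc2, Psmc5, Psmd3, Psmd6 and Psmd7, at 0.03 or less. The median was -0.06, beside -0.02 over all genes, and the median absolute change was 0.0645, beside 0.121 over all genes and 0.0850 over the 5187 genes of like level. None of the 34 passed an adjusted p of 0.05 in limma, where 0.333% of all genes did, and 2 passed an unadjusted p of 0.05, where 12.1% of all genes did. edgeR and DESeq2 called 0 of 34 as well, with 1 gene each at an unadjusted p under 0.05. Taken over all 34 genes, the 95% intervals spanned -0.47 to 0.26, not adjusted for the number of genes, so that each gene's own interval left out a change of 1 log2 unit in either direction.

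**Figure D3:**
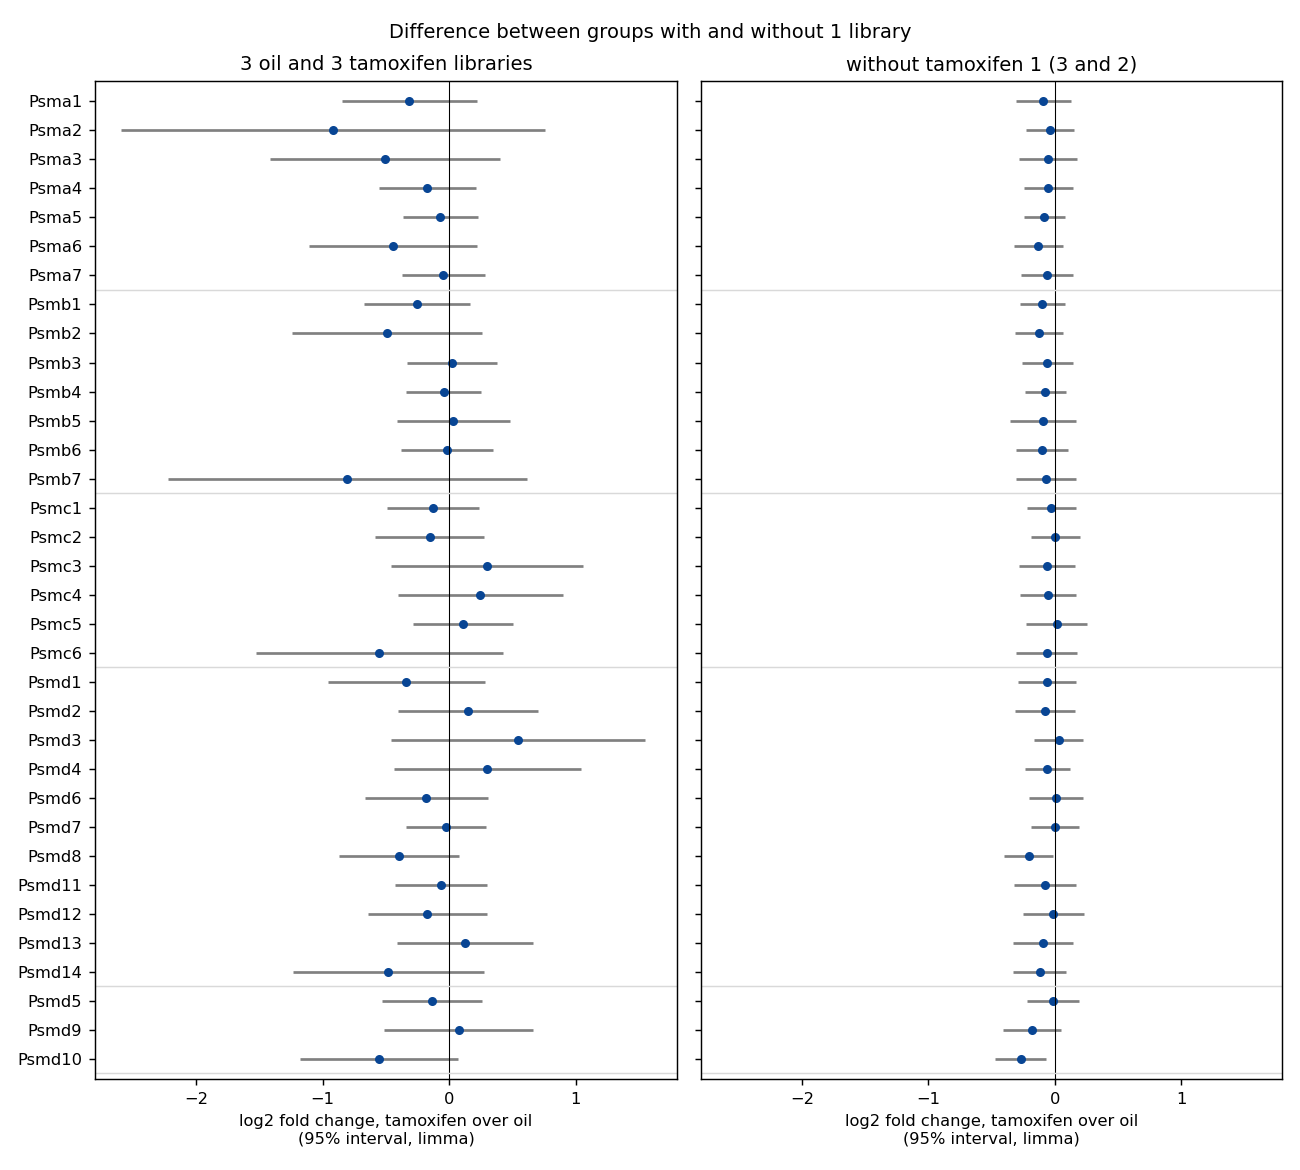
log2 fold change of tamoxifen over oil for the 34 genes with 95% intervals from limma, with all 6 libraries at left and without tamoxifen 1 at right, grouped by class. The left intervals reach from -2.60 to 1.55 and the right ones from -0.47 to 0.26.

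The alpha subunits, which gate the entrance to the barrel, were all lower without tamoxifen 1, between -0.13 and -0.04, with no gene past the test. Psma6 measured 5104, 4646 and 5126 in oil, 2362 in tamoxifen 1 and 4831 and 4248 in tamoxifen 2 and 3, which gave -0.13 ± 0.09 (SE, limma adjusted p = 0.583), and -0.44 ± 0.28 with 6 libraries. Psma2, given above, was at the other end with -0.04 ± 0.09, and -0.92 ± 0.70 with 6 libraries. The groups overlapped in 6 of the 7 alpha genes and parted only in Psma5, on chr3:108256926-108279974 in mm10, at 2560.0, 2719 and 2643 in oil against 2559, 2526 and 2462. Its tamoxifen 1 value lay barely below that of oil 1, and the fold change was -0.07 ± 0.12 with 6 libraries and -0.08 ± 0.07 without tamoxifen 1, the latter with a limma adjusted p of 0.697.

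The beta subunits were also all lower, between -0.13 and -0.06, and all 7 overlapped between the groups. Psmb2, a structural subunit, measured 3396, 3411 and 3471 in oil and 1466, 3399 and 2904 in tamoxifen 1, 2 and 3, giving -0.49 ± 0.31 with 6 libraries and -0.13 ± 0.08 without tamoxifen 1. Psmb3, also structural, measured 4008, 3674 and 4208 against 4501, 4049 and 3554, giving 0.02 ± 0.15 and -0.06 ± 0.09. Thus tamoxifen 3 lay below every oil library in both genes and tamoxifen 2 did not.

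The 3 active subunits followed the same pattern. Psmb5 measured 923, 889.5 and 1049 in oil and 1163, 987 and 806 in tamoxifen 1, 2 and 3, and Psmb6 measured 2706, 2586 and 2864 against 3030.3, 2758 and 2326. Without tamoxifen 1 their fold changes were -0.09 ± 0.12 and -0.10 ± 0.09, with limma adjusted p of 0.784 and 0.708, and that of Psmb7 was -0.07 ± 0.11 with an adjusted p of 0.835. With 6 libraries the 3 values were 0.03 ± 0.19, -0.01 ± 0.15 and -0.81 ± 0.59. For each of the 3, tamoxifen 2 lay inside the oil range and tamoxifen 3 below it.

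The ATPases of the base showed the smallest differences of the classes without tamoxifen 1, with a median of -0.04. Psmc5 measured 2547, 2517 and 3063 in oil and 3327, 2941 and 2529.9 in tamoxifen, or 0.11 ± 0.17 with 6 libraries and 0.02 ± 0.11 without tamoxifen 1. Psmc6 measured 2272, 2355 and 2610.1 in oil and 836, 2583 and 2051 in tamoxifen, or -0.55 ± 0.41 and -0.07 ± 0.11. Without tamoxifen 1 neither passed limma's test, at adjusted p of 0.970 and 0.852, and all 6 ATPase genes overlapped between the groups.

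Among the 11 non-ATPase subunits Psmd8 differed most without tamoxifen 1, although with 6 libraries Psmd3 and Psmd14 differed more, at 0.54 and -0.48 against -0.40. It encodes RPN12, a subunit of the lid, lies on chr7:29174188-29180701 in mm10, and measured 3226, 3111 and 3241 in oil and 1865, 3007 and 2544 in tamoxifen 1, 2 and 3. The groups did not overlap with or without tamoxifen 1, and without it the log2 fold change was -0.21 ± 0.09, with an unadjusted p of 0.0404 and an adjusted p of 0.391 in limma. Psmd3 was at the other end, at 0.03 ± 0.08. Psmd14 measured 2731, 2456 and 2859 in oil and 1155, 2627 and 2316 in tamoxifen, or -0.12 ± 0.09 without tamoxifen 1, and Psmd4 gave 0.30 ± 0.31 with 6 libraries and -0.06 ± 0.08 without it.

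Without tamoxifen 1, the chaperone gene Psmd10 had the lowest fold change of the 34 genes, although with 6 libraries Psma2 and Psmb7 were lower, at -0.92 and -0.81 against -0.55. Its product, gankyrin, binds an ATPase of the base during assembly and is known as an oncoprotein in liver cancer. The gene lies on chrX:140948429-140956728 in mm10 and measured 829, 847 and 840.3 in oil and 385, 722 and 669 in tamoxifen 1, 2 and 3. The oil libraries had a coefficient of variation of 1.08%, below the 3.33% that counting error alone would give for this gene, and every tamoxifen library was lower. Without tamoxifen 1 the log2 fold change was -0.27 ± 0.09, a fold of 0.829, with an unadjusted p of 0.0138, but over all genes the adjusted p in limma was 0.274 and it did not pass. Psmd5 measured 1537, 1763 and 1799.5 in oil and 1313, 1725 and 1633 in tamoxifen, or -0.13 ± 0.17 with 6 libraries and -0.01 ± 0.09 without tamoxifen 1, and Psmd9 gave 0.08 ± 0.25 and -0.18 ± 0.10. Over the 34 genes, the 3 that did not overlap downward, again Psma5, Psmd8 and Psmd10, compare with 16.8% of all genes, and the 0 that did not overlap upward with 12.6%.

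The subunit genes shared an order of the libraries. Among the 5 libraries other than tamoxifen 1, oil 3 was the highest for 26 of the 34 genes, or 76.5%, against 24.6% of all tested genes and 31.3% of those of like level. Tamoxifen 3 was the lowest for 29 of the 34, or 85.3%, against 33.7% of all tested genes and 42.7% of those of like level. The median log2 difference of the 34 genes from the oil mean was -0.04, -0.06 and 0.09 in oil 1, 2 and 3 and 0.05 and -0.17 in tamoxifen 2 and 3, whereas that of all tested genes stayed between -0.04 and 0.01. Each class but the chaperones gave tamoxifen 3 a median from -0.18 to -0.14 and tamoxifen 2 one from 0.02 to 0.08, so the 2 tamoxifen libraries lay on opposite sides of the oil mean. The 3 chaperone genes had medians of -0.22 in tamoxifen 2 and -0.09 in tamoxifen 3, where Psmd5 and Psmd10 kept the common order of these libraries and Psmd9, at 763 and 863, did not. These counts describe 34 genes read from the same libraries and carry no test, and in bulk RNA fewer cells of a type and less RNA per cell cannot be told apart.

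**Figure D4:**
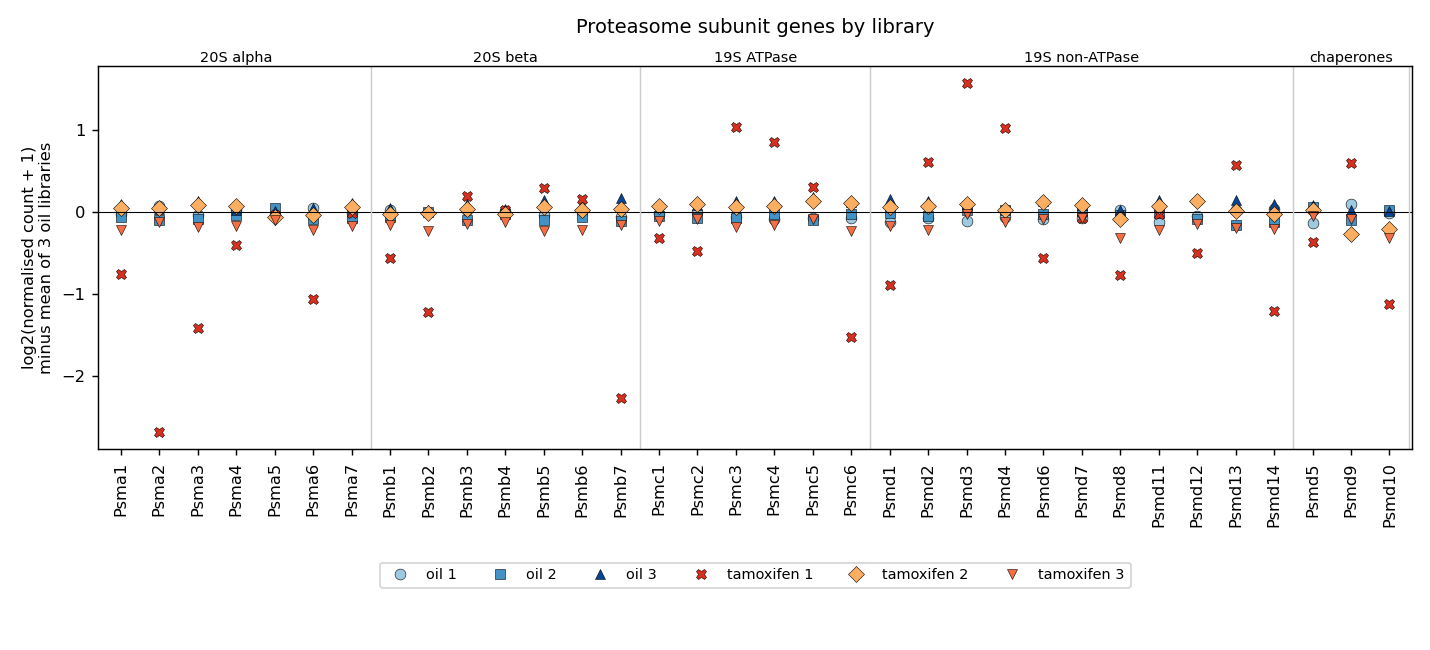
Each of the 34 genes in each of the 6 libraries, as log2(normalised count + 1) minus the mean of the 3 oil libraries, grouped by class. Tamoxifen 1 (red crosses) scatters from -2.69 to 1.57, while the other libraries stay between -0.33 and 0.18, with tamoxifen 3 lowest for 29 genes among those 5.

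The direction without tamoxifen 1 rested on tamoxifen 3. Leaving it out too, so that only tamoxifen 2 stood against oil, 25 genes were higher and 9 lower with a median of 0.05, and leaving out tamoxifen 2 instead, all 34 were lower with a median of -0.17. The share of the summed normalised counts taken by the 36 genes also had tamoxifen 2 inside the oil range and tamoxifen 3 below it. It was 0.544%, 0.533% and 0.579% in oil and 0.488%, 0.564% and 0.505% in tamoxifen 1, 2 and 3, or 0.552% ± 0.024 (SD, n = 3) and 0.519% ± 0.040 (SD, n = 3), with p = 0.3 in the exact two-sided permutation test over the libraries, whose smallest p is 0.1. Without tamoxifen 1 the tamoxifen mean was 0.534% and the exact permutation p 0.6. In tamoxifen 1 the normalised counts of the 36 genes summed to 119480, inside the oil range of 114920 to 126790. Its low share thus came with a larger total over all genes.

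Exchange between constitutive and immune subunits was examined with 3 ratios of normalised counts within a library, each tested by exact two-sided permutation, where neither design can give a p below 0.1. Psmb9 over Psmb6, for the caspase-like site, was 0.624, 0.621 and 0.604 in oil and 0.555, 0.575 and 0.582 in tamoxifen. Every tamoxifen library was lower, including tamoxifen 1, and the difference was -0.11 on the log2 scale, with exact p = 0.1 and 0.15 after Benjamini-Hochberg adjustment over the 3 ratios. Without tamoxifen 1 it was -0.09, with exact p = 0.1 and 0.3 after adjustment.

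The other two ratios pointed upward with larger spread. Psmb10 over Psmb7, for the trypsin-like site, was 1.11, 1.21 and 1.06 in oil and 14.9, 1.21 and 1.48 in tamoxifen. The 14.9 was tamoxifen 1, with its low Psmb7 and high Psmb10, at log2 deviations of -2.25 and 1.38 from the other libraries. The log2 difference of the ratio was 1.41 (exact p = 0.1) with that library and 0.25 (exact p = 0.2) without it. Psmb8 over Psmb5, for the chymotrypsin-like site, was 0.920, 0.835 and 0.930 in oil and 1.64, 0.892 and 1.25 in tamoxifen, a log2 difference of 0.45 (exact p = 0.3) and, without tamoxifen 1, of 0.24 (exact p = 0.4). In tamoxifen 2 Psmb8 over Psmb5 lay inside the oil range and Psmb10 over Psmb7 barely above its highest value. Of the immunosubunit genes, Psmb8 measured 849.7, 743 and 976 in oil and 1911, 880.0 and 1008 in tamoxifen. Psmb9 measured 1689.6, 1605 and 1729.9 in oil and 1682, 1585 and 1354 in tamoxifen. Psmb10 measured 1845, 1939 and 2060.4 in oil and 5320.5, 2142 and 2278 in tamoxifen. Psmb10 was higher in every tamoxifen library, as were 7.86% of all genes with 6 libraries and 12.6% without tamoxifen 1. Psmb8 overlapped in both comparisons, and Psmb9 only with 6 libraries, being lower without overlap when tamoxifen 1 was left out, as were 16.8% of all genes. They had log2 fold changes without tamoxifen 1 of 0.15 ± 0.12 for Psmb8, -0.19 ± 0.09 for Psmb9 and 0.18 ± 0.08 for Psmb10, none past limma's test, with a lowest adjusted p of 0.414. With all 6 libraries they were 0.49, -0.13 and 0.61.

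**Figure D5:**
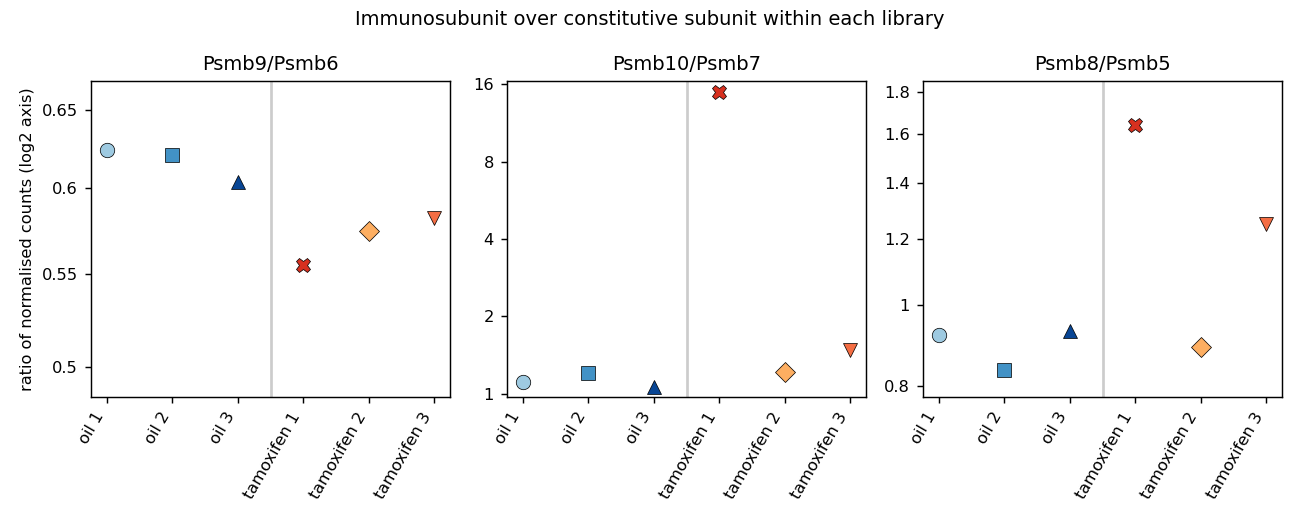
Ratio of the immunosubunit to the constitutive subunit for the 3 active sites in each library, on log2 axes with a separate scale per panel. Psmb9/Psmb6 is below all oil libraries in the 3 tamoxifen libraries (0.555 to 0.582 against 0.604 to 0.624), and Psmb10/Psmb7 reaches 14.9 in tamoxifen 1.

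The genes that work with the proteasome gave no call past an adjusted p of 0.05 in either limma comparison. This held for 5 of 5 activators and inhibitors, where Psme3, the nuclear activator PA28-gamma, had the largest value without tamoxifen 1 at 0.14 ± 0.08, beside 0.14 ± 0.13 with 6 libraries, and for the 5 assembly chaperones tested of 6 listed, where Psmg2 had -0.10 ± 0.11. With 6 libraries Psmg2 had -1.01 ± 0.73, since it measured 169 in tamoxifen 1 and between 1028 and 1339 in the other 5. It also held for the 19S subunits with other symbols, Adrm1 and Sem1, where the ubiquitin receptor gene Adrm1 had 0.02 ± 0.09 without tamoxifen 1 and 0.46 ± 0.37 with it, at 5315 in that library and between 2003 and 2267 in the others. Among 8 genes of the transcriptional and import machinery, including Nfe2l1, the small Maf gene Mafg, whose product pairs with NRF1, measured 762, 834 and 839 in oil and 1571, 945 and 1043 in tamoxifen, and without tamoxifen 1 had 0.29 ± 0.09, beside 0.51 ± 0.22 with it (without it, unadjusted p = 0.0125, limma adjusted p = 0.265). Among 15 partners, Zfand5, an activator of the 26S particle, measured 1032, 1074 and 1209.9 in oil and 1329, 1357 and 1363 in tamoxifen, or 0.29 ± 0.14 with 6 libraries and 0.30 ± 0.09 without tamoxifen 1 (without it, unadjusted p = 0.00933, limma adjusted p = 0.245). In Mafg and Zfand5, and in a further small Maf gene, Mafk, with 1626, 1548 and 1496 in oil and 3039, 1739.7 and 1726 in tamoxifen, every tamoxifen library was above every oil library. These were 3 of the 35 tested genes of the 5 lists, beside 7.86% of all genes, and 1 of the 35 lay below in every tamoxifen library, beside 9.69%, namely the ubiquitin ligase gene Ube3c, with 1899, 1941 and 1916.5 in oil and 1626, 1825 and 1631 in tamoxifen. Without tamoxifen 1 the numbers were 6 higher, beside 12.6%, and 1 lower, beside 16.8%. None passed the test over all genes.

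Reads from near-identical copies could in principle be shared with the subunit genes. The 4 rows named as their pseudogenes held at most 2 reads in any library. Copies under other symbols were not looked for, and the treatment of reads matching several places was not examined. These counts thus cannot decide whether reads were shared. On the opposite strand, 13 of the 36 genes overlap an annotated gene, 7 of them a protein-coding one, and since strand is not stated for the counting, reads of the overlapping stretch cannot be assigned to 1 of the strands.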

How the data were processed

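RNA-seq of 6 libraries (3 oil, 3 tamoxifen) was analysed. The authors deposited 1 table of values per gene, a signal in which read counts had been divided by a size factor per library. STAR, DESeq2 and mm10 are named in the submitters' processing notes, without versions. Whole reads were recovered from the step of each library, with 100% of values above 0 whole within 0.1 read. Rows without a gene name (1832, 0.0400% to 0.0614% of reads) were left out. The test was limma 3.58.1 in R 4.3.3 (two-sided, eBayes with trend) on log2(value + 1), so that fold changes are on that scale, over 12298 named genes with 10 or more in at least 3 libraries, with Benjamini-Hochberg adjustment over all of them and a threshold of 0.05. The test was fitted to the whole table, once with 6 libraries and once without tamoxifen 1. Ratios and shares were tested by exact permutation over libraries. Alternatives were edgeR 4.0.16 and DESeq2 1.42.0 on the recovered reads, TMM and upper-quartile scaling, pseudocounts of 0.5 and 5, no filter, 1 CPM in 3 libraries, a replicate block, a GC correction (loess span 0.3), library weights and leaving out each library.

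Values per library were given for the genes with the highest and lowest fold change of each class without tamoxifen 1, the active subunits, the immunosubunits, Usp18, Mafg and Zfand5, and fold changes for the other genes with the largest change of each pathway list reported. Levels of all expressed genes were plotted. Values of Psma5, Psmd4, Psmd9, Psmd14, Mafk and Ube3c were added after their values were seen. The genes and lists were chosen with earlier results of these data known. Paaf1 was not analysed here, and a pathway list and a marker gene are not reported here. Gene positions, lengths and GC content came from GENCODE vM21 and promoter windows from RefSeq. The scripts were tested on simulated data. The methods give 3 mice per group for this RNA-seq, and the labels do not tie a library to a mouse. No 2 libraries agreed within sampling noise (chi-square per degree of freedom of 9.77 or more).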

Additional observations from a re-analysis of the deposited data

How the results depend on the processing

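No subunit gene passed an adjusted p of 0.05 in any alternative of either comparison, the lowest adjusted p being 0.0668 with library weights. Counts over all genes moved. DESeq2 was run on 24247 genes with 6 libraries and on 23788 without tamoxifen 1, against 12298 in limma. Its counts thus differ from limma's in both the tool and the genes tested. With 6 libraries limma's 0 calls (550 genes at an unadjusted p under 0.05) became 71 with DESeq2, 0 with edgeR, 782 with library weights and 0 to 41 when libraries were left out, 41 being without tamoxifen 1. Without tamoxifen 1 the 41 calls became 230 with DESeq2, 46 with edgeR, 0 without a filter, 322 with the replicate block, 350 with the block and GC correction, and 19 (without tamoxifen 3) to 387 (without tamoxifen 2) when libraries were left out, 71 being without oil 1. Oil 1 has no partner once tamoxifen 1 is left out, so the block also takes oil 1 out of the comparison. With 1 tamoxifen library left, the spread in these fits came from the oil libraries alone and the lone library was assumed to vary like them. Libraries with the same replicate number did not deviate together (correlations of -0.0236, 0.0607 and -0.153), and the block gave 0 calls with 6 libraries. Usp18 was 0.52 with library weights, past the threshold (adjusted p = 0.0348), its adjusted p otherwise reaching 0.861, and without tamoxifen 1 it ranged from 0.0644 to 0.433. Mafg also passed with library weights (0.33, adjusted p = 0.0483).

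The extremes and median of the 34 genes with 6 libraries also moved. Psma2 was -0.49 with edgeR, -0.51 with DESeq2, -0.32 with GC correction and -0.087 with library weights, Psmd3 was 0.74, 0.73, 0.26 and 0.0043, and the median of -0.13 was -0.06 with GC correction or upper-quartile scaling. When libraries were left out Psma2 ranged from -1.41 (without tamoxifen 2) to -0.04 (without tamoxifen 1), Psmd3 from 0.03 (without tamoxifen 1) to 0.83 (without tamoxifen 3) and the median from -0.22 (without tamoxifen 2) to -0.06 (without tamoxifen 1). Also with 6 libraries, GC correction, with or without the block, took Zfand5 from 0.29 to 0.86 and Psmd10 from -0.55 to -0.17. Signs turned for some fold changes. With 6 libraries Psmb6 became 0.0059 with edgeR and 0.053 with upper-quartile scaling, and Psmb3 became -0.0033 with TMM scaling. With GC correction, with or without the block, Psmb3 was -0.12, Psmc6 0.24 (from -0.55), Psmd5 0.11 and Psmb5 -0.20. With library weights Psmb3 was -0.088, Psmc5 -0.019, Psmb5 -0.15 and Adrm1 -0.00076. When libraries were left out Psmb3 ranged from -0.061 to 0.11, Psmb5 from -0.094 to 0.17 and Psmb6 from -0.10 to 0.090. Without tamoxifen 1, Psmd5 became 0.00078 with edgeR, Psmc5 and Psmd3 were -0.026 and -0.025 both with the block and without oil 1, Psmc5 and Adrm1 were -0.010 and -0.012 with GC correction, and Psmc5, Psmd3 and Adrm1 were -0.059, -0.054 and -0.026 with both. When libraries were left out the ranges were -0.066 to 0.11 for Adrm1, -0.12 to 0.046 for Psma2, -0.155 to 0.033 for Psmb3, -0.24 to 0.053 for Psmb5, -0.22 to 0.022 for Psmb6, -0.17 to 0.030 for Psmb7, -0.093 to 0.12 for Psmc5, -0.23 to 0.10 for Psmc6, -0.034 to 0.092 for Psmd3, -0.086 to 0.028 for Psmd5 and -0.24 to 0.032 for Psmg2. The ratio Psmb8 over Psmb5 ranged from -0.0042 to 0.48 and the share of the subunit genes from -0.0473 to 0.0114 percentage points, each turning without tamoxifen 3. The log2 difference for Psmb10 over Psmb7 ranged from 0.11 to 0.40 without a change of sign. With 6 libraries it ranged from 0.25 to 2.06, and that for Psmb8 over Psmb5 from 0.24 to 0.68. The cause of these changes was not tested. Of 22 named fold changes, 15 kept their sign in every alternative with 6 libraries and 11 without tamoxifen 1.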
